A study of Gallus gallus with 5 samples.

Results

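Wild-type DT40 cells were described through the 2 of 5 Affymetrix Chicken Genome arrays in the series whose titles name the wild type, called replicate 1 and replicate 2. No mutant array was used, and no group was compared with another. DT40 is an established chicken B cell line, and the other arrays of the series are of DT40 cells in which a variant of the linker histone H1 was deleted. Total RNA came from cells in exponential growth, per the series' design text, which states the medium (RPMI with calf and chicken serum) for the mutant cells. The labels do not say that the replicates came from separate cultures, and a date code in their descriptions differs between them.

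DT40 was derived from a lymphoma of the bursa of Fabricius, the organ in which birds make B cells, after infection with an avian leukosis virus. In such lymphomas the virus commonly inserts next to MYC, a transcription factor that drives growth and ribosome production. The line is known for diversifying its immunoglobulin genes by gene conversion from pseudogenes and for frequent homologous recombination, which made gene targeting in it common.

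Signals are intensities of probe sets on a linear scale. Of 38439 probe sets that are not Affymetrix controls, 27168 had exactly 1 gene symbol, and these stood for 13051 genes. A gene's signal is that of its probe set with the highest mean over both arrays, and genes were ranked by that mean. Other probe sets of a gene can be dimmer, and their counts are given for some genes only. A gene was called bright where a probe set gave 100 or more on both arrays, and at background where all its probe sets lay, on both arrays, at or below the highest signal of 23 control probe sets whose targets chicken RNA lacks. That background limit was 29.2 on replicate 1 and 21.4 on replicate 2. The other genes are called intermediate. Signals of different genes depend on their probes as well as on their transcripts, so the order is one of signal and not of transcript number, and a gene at background is one whose probes gave no signal above the limit.

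Of the 13051 genes, 5154 (39.5%) were bright, 3788 (29.0%) were intermediate and 4109 (31.5%) were at background. The curve of ranked signals fell without a step from 15146.4 to 0.4, with a median of 53.0, and the limit of 100 cuts a continuous range. DNAJC30 (100.1 and 184.6), ASB9 (100.2 and 107.9) and PRELID3A (110.1 and 100.2) lay just inside it. CDK12 (99.9 and 141.4), CCDC137 (99.9 and 171.7) and SCLY (99.9 and 124.3) lay just outside. The 500 brightest genes held 46.3% of the summed signal on replicate 1 and 44.3% on replicate 2. Genes with more probe sets were bright more often, from 31.9% of 5715 genes with 1 probe set to 50.7% of 1413 genes with 4 or 5 and 47.7% of 304 genes with 6 or more.

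**Figure D1:**
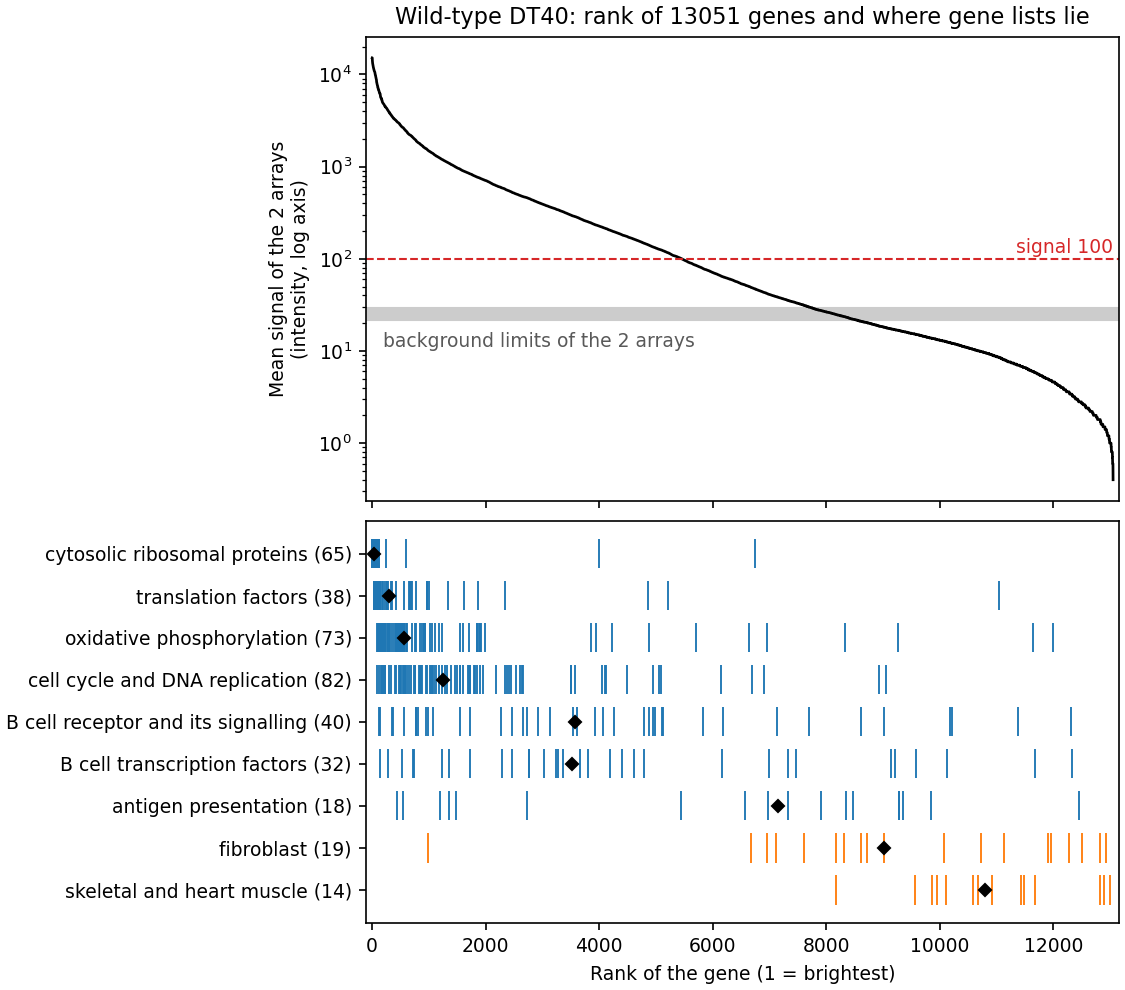
Upper panel: mean signal of the 2 wild-type arrays (intensity, log axis) against the rank of the 13051 genes, with the limit of 100 (dashed) and the range between the background limits of the 2 arrays, 21.4 and 29.2 (grey). Lower panel: rank of each member of 9 gene lists (1 line per gene, number of genes in brackets, diamond for the median), blue for lists of B cell, growth and metabolic genes and orange for lists of other cell types. Ribosomal protein genes crowd at the bright end, and muscle genes lie at the dim end.

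The 2 arrays ranked genes alike. Across the 27168 probe sets, log2(signal + 6) correlated with a Pearson r of 0.963 and the signals with a Spearman rho of 0.917, given as a description of 2 arrays of 1 cell line. The SD of the log2 ratio of signal + 6 was 0.66, and 86.3% of probe sets lay within 2-fold by that ratio. The added 6 shrinks the ratios of low signals. By the same measure agreement rose with signal, from 79.9% within 2-fold where the mean was under 25 to 97.6% at 1600 or more. Replicate 2 was the brighter array: its 2% trimmed mean was 144.5 against 119.4, and 76.0% of the bright genes read higher on it, with a median log2 ratio of 0.26. At 100 or more by the brightest probe set there were 421 genes on replicate 2 only and 105 on replicate 1 only. Between the arrays, 0.859% of signals were identical.

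The labelled cell type was checked against its markers, most of which were bright. Of 18 listed B cell markers, 14 genes were on the array. Of these, 10 were bright (71.4%, against 39.5% of all genes) and none was at background (against 31.5%). PAX5, CD40, CXCR5 and BLB1 were intermediate. The median signal of the markers was 1020.8, against 53.0 for all genes. The markers were chosen with earlier results of these data known. Markers of 10 other cell types were rarely bright, at no more than 17.6% of a list, as given with their exceptions further on. In all, 27 lists named 977 genes, and 804 genes on the array matched them.

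Genes of the B cell receptor and its signalling chain were mostly bright, at 29 of 40 (72.5%, against 39.5% of all genes). At background were 5 (12.5%, against 31.5%), and the median signal was 287, against 53.0 for all genes. CD79B, a signalling chain that pairs with membrane immunoglobulin, read 3263.8 and 3744.7. The gene listed as IGLL1, for which RefSeq gives IgL and IGLV as synonyms, names of the immunoglobulin lambda light chain, read 2282.5 and 11330.0 and was the brightest of the list at rank 114. The joining chain of secreted immunoglobulin, JCHAIN, read 7395.4 and 4970.7. All 3 were far above the limit on both arrays, but IGLL1 differed between the arrays far more than the others.

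Of the 8 probe sets of IGLL1, 5 were bright and 3 were at background on both arrays. The 5 bright ones read between 1626.5 and 2282.5 on replicate 1 and between 9533.3 and 11330.0 on replicate 2, so all of them were higher on replicate 2 and the ranges did not overlap. They carry variants of 1 probe set name, and may share probes. The 3 dim ones read at most 14.6.

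The kinases and adaptors next to the receptor formed a bright chain. LYN, the Src-family kinase that phosphorylates the receptor's signalling chains, read 1825.2 and 1810.9, with 1 of 3 probe sets bright. SYK, the kinase recruited to them, read 1194.7 and 1937.5. The gene named SH2D6, for which RefSeq gives BLNK as a synonym, the adaptor downstream of SYK, read 2834.2 and 4060.3. Each of these read far above the limit on both arrays. BTK, the kinase that activates phospholipase C, read 1086.7 and 1941.0. The phospholipase itself, PLCG2, read 1037.8 and 1755.5 and was bright in 6 of 6 probe sets.

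Further adaptors and kinases of the list were mixed. The adaptors GRB2 (1665.9 and 2158.3), DAPP1 (892.3 and 776.8) and PIK3AP1 (521.0 and 670.9) were bright. BLK, a Src-family kinase of mammalian B cells, read 5.3 and 19.3 and was at background. FYN read 20.3 and 21.6, and GAB1, a docking adaptor, read 14.6 and 9.6 with all 3 of its probe sets at background. TEC, a kinase related to BTK, read 13.7 and 113.2, so that the arrays placed it on different sides of the limit. Among the NFAT factors, which calcium signals activate, NFATC3 stood at 1953.9 and 3149.7 in 1 of 4 probe sets. Its other probe sets read from 43.0 to 110.4. NFATC1 (25.1 and 11.2) and NFATC2 (0.7 and 6.1) were at background. For calcium entry itself, the channel ORAI1 read 324.0 and 622.8. Of its sensors, STIM2 read 151.3 and 145.5, and STIM1 was intermediate at 96.2 and 297.6, with the arrays on different sides of the limit. The IP3 receptors ITPR1 (138.9 and 107.2) and ITPR2 (114.7 and 149.7) were bright, and ITPR3 (38.0 and 39.2) was intermediate. Of the phosphatases that restrain the receptor, PTPN6 read 325.3 and 589.7, and INPP5D read 62.2 and 95.1, below the limit on both arrays.

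**Figure D2:**
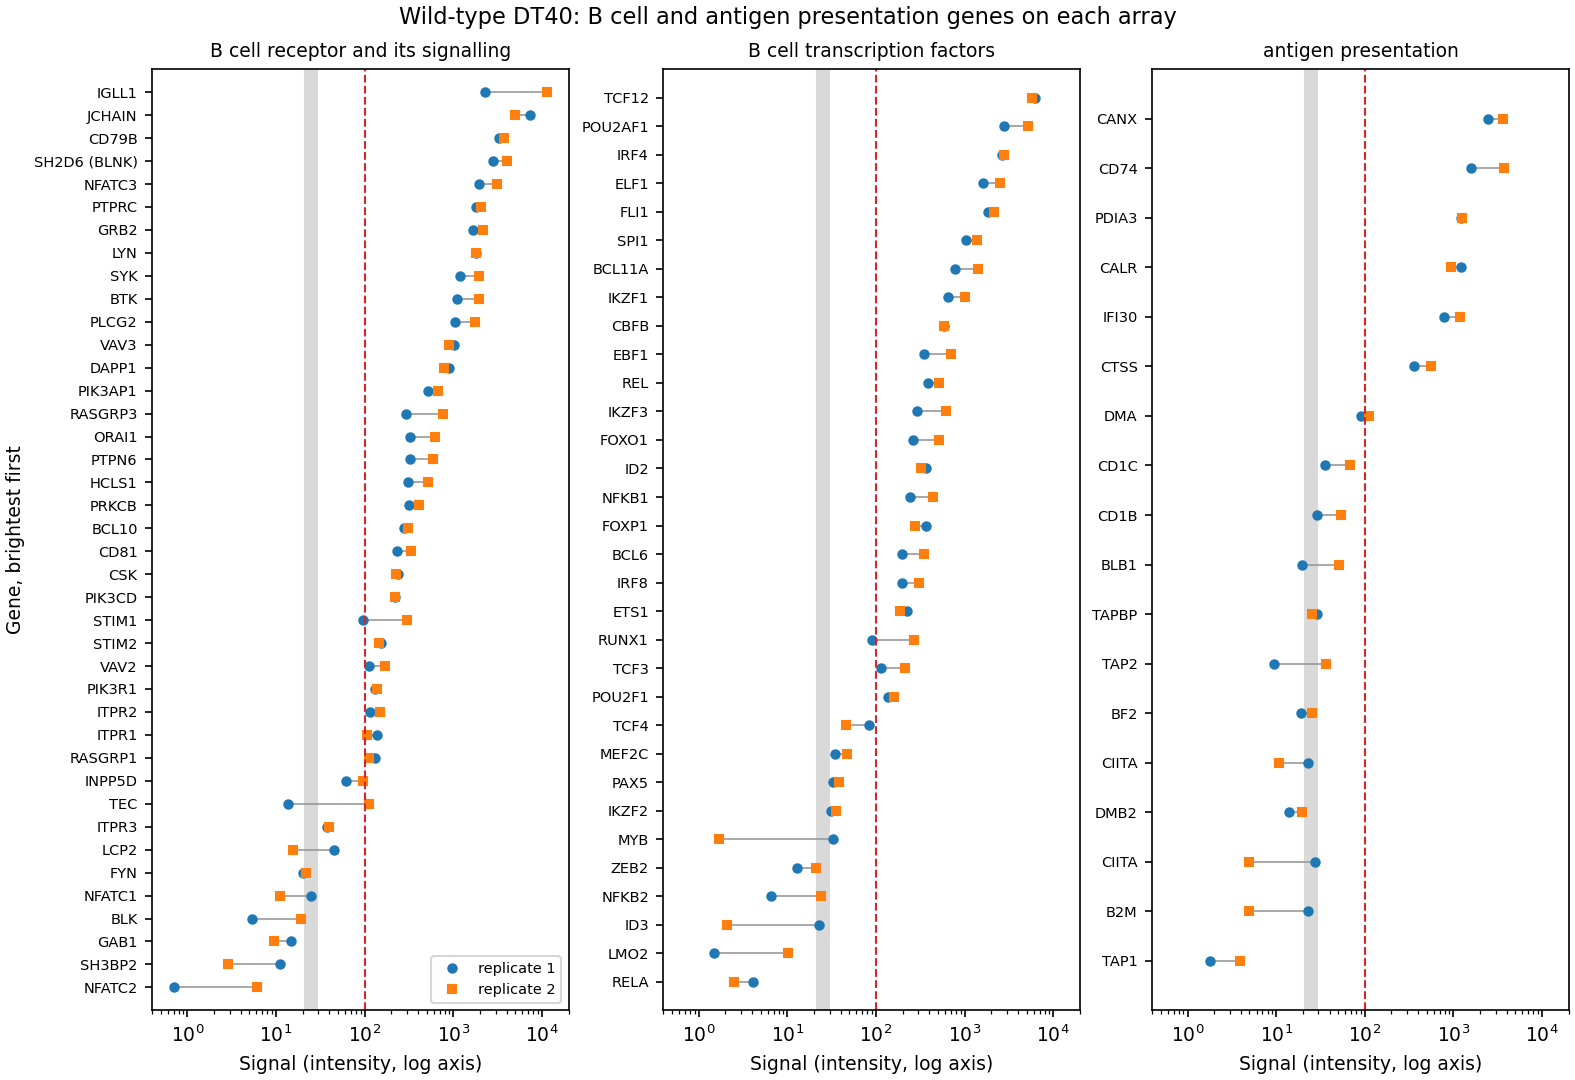
Signal (intensity, log axis) of each gene of 3 lists on replicate 1 (circles) and replicate 2 (squares) of wild-type DT40, brightest first. The dashed line is the limit of 100 and the grey band spans the background limits 21.4 and 29.2. A name in brackets is the listed one where the file's differs, CIITA appears under 2 gene numbers, and values under 0.5 would be drawn at 0.5. CD79B to PLCG2 sit far right of the limit on both arrays, PAX5 sits just above the band, and 12 of the 18 antigen presentation genes lie below 100 on at least 1 array.

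Of 32 B cell transcription factors, 21 were bright (65.6%, against 39.5% of all genes). Another 7 were intermediate and 4 were at background (12.5%, against 31.5%). TCF12, an E protein that binds E-box sequences, was the brightest at 6266.2 and 5747.9, with 4 of 4 probe sets bright. POU2AF1, the B cell coactivator of octamer-binding factors, read 2802.5 and 5240.2. IRF4, a factor of activated B cells and plasma cells, read 2621.1 and 2804.9. Factors that specify and hold the B lineage followed at lower signals. SPI1 (PU.1), an ETS factor of B and myeloid cells, read 1030.2 and 1367.2. IKZF1 (Ikaros) read 645.5 and 1020.0, and its relative IKZF3 (Aiolos) read 289.4 and 611.2 with 1 of 2 probe sets bright. EBF1, a factor that commits progenitors to the B lineage, read 348.3 and 707.2 with 2 of 2 probe sets bright. BCL6, the repressor of germinal centre B cells, was bright too, at 195.8 and 350.9 in 1 of 2 probe sets.

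PAX5, which maintains B cell identity, was among the 7 intermediate factors, as were RUNX1 (91.3 and 271.1) and MEF2C (34.8 and 47.4). The brightest PAX5 probe set read 32.5 and 37.9, just above the background limits. The 3 other PAX5 probe sets read between 1.2 and 19.3, at background on both arrays. EBF1, IKZF1 and SPI1 were bright while the probes of PAX5 gave little signal. Of the E proteins, TCF3 read 114.3 and 212.6 and TCF4 read 83.3 and 45.6. ID3, an inhibitor of E proteins, read 22.9 and 2.1 and was at background, whereas ID2 read 366.3 and 323.6 in 1 of 4 probe sets and was at background in the other 3. Of the NF-kappaB family, REL (382.7 and 519.0) and NFKB1 (241.8 and 440.1) were bright, and RELA, with 1 probe set, read 4.1 and 2.5. MYB read 33.0 and 1.7, with the arrays on different sides of their limits.

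Surface molecules and cytokine receptors of B cells were bright in 14 of 35 cases (40.0%), close to the 39.5% of all genes. At background were 13 (37.1%), near the 31.5% of all genes. The gene LOC396098, for which RefSeq gives Bu-1 as a synonym, the antigen by which avian B cells are stained, was the brightest at 2688.9 and 3793.1 with 3 of 3 probe sets bright. TNFSF13B (BAFF), a survival cytokine of B cells, read 1014.7 and 1775.5, and its receptor TNFRSF13B (TACI) read 121.6 and 188.9. The integrin chain ITGB1 (1613.6 and 2357.0), the shared cytokine receptor chain IL2RG (1077.6 and 1707.4) and the inhibitory receptor CD72 (551.6 and 807.2) were bright as well. Of the chemokine receptors, CXCR4 was bright at 217.1 and 280.7. CXCR5, the receptor for follicles, read 2.7 and 41.5, and CCR7 (10.6 and 7.5) and CCR6 (2.1 and 3.7) were at background. CD40, the receptor for T cell help, read 61.3 and 72.3 and was intermediate. The activation markers CD86 (25.9 and 4.0), CD83 (3.0 and 18.8) and CD38 (13.9 and 9.6) were all at background.

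Of 18 antigen presentation genes, 6 were bright (33.3%), 7 were intermediate and 5 were at background (27.8%), against 39.5% and 31.5% of all genes, with a median signal of 38.3. By replicate 1 alone 10 were at background, against 5327 of all 13051 genes by that array. The 6 bright ones were the endoplasmic reticulum chaperones CANX, CALR and PDIA3, the lysosomal enzymes IFI30 and CTSS, and CD74, the invariant chain of class II molecules. CD74 read 1586.2 and 3683.8 with 3 of 3 probe sets bright. The molecules it accompanies were dim: BLB1, a class II beta chain, read 19.8 and 50.6, with 4 of its 5 probe sets at background. CIITA, the master regulator of class II genes, has 2 gene numbers in the probe table. It read 22.6 and 10.7 under 1 of them and 27.5 and 5.0 under the other, and was at background under both. It is therefore counted 2 times among the 18 genes and among the 5 at background.

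B2M, the light chain of class I molecules, was at background in 3 of 3 probe sets, whose signals ran from 4.9 to 22.6. BF2, a class I heavy chain, read 18.9 and 25.2 with 3 of 4 probe sets at background. The peptide transporter chains TAP1 and TAP2 read 1.8 and 3.9, and 9.4 and 36.9. Genes placed on chromosome 16, which carries the chicken major histocompatibility complex, were bright in 6 of 40 cases (15.0%, against 39.5% of all genes). At background were 12 of the 40, a share near the 31.5% of all genes. Loci of the complex vary between chicken lines, and whether the probes match the alleles of DT40 was not tested.

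The plasma cell list held 8 bright genes of 12 (66.7%, against 39.5% of all genes). XBP1, the factor of the secretory response, read 4474.8 and 5289.6 with 2 of 2 probe sets bright. DERL3 (728.6 and 1100.7), a component of endoplasmic reticulum degradation, and SEC11C (721.0 and 982.6), a signal peptidase subunit, were bright too. PRDM1 (Blimp-1), the repressor that ends the B cell programme, read 26.5 and 15.4 and was at background, as was CD38. SDC1, the plasma cell surface marker, read 53.2 and 84.3. JCHAIN, POU2AF1 and IRF4 are counted here as well as above.

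Of 45 genes of immunoglobulin diversification and DNA recombination, 34 were bright (75.6%, against 39.5% of all genes). Another 8 were intermediate and 3 were at background (6.67%, against 31.5%). The 3 at background on both arrays act in V(D)J joining: RAG1 (20.5 and 6.7), RAG2 (23.6 and 18.1) and DNTT (3.4 and 3.0), which together cut and extend immunoglobulin gene ends in developing lymphocytes. By replicate 1 alone 6 genes of the list were at background, and 4 by replicate 2 alone. Of all 13051 genes, 5327 and 4304 were. UNG, the uracil glycosylase that acts after cytidine deamination, read 1525.2 and 3040.6. The recombination mediators BRCA1 (666.7 and 738.9) and BRCA2 (408.6 and 693.0) were bright, as were the repair factors XRCC3 (460.2 and 691.6) and XRCC2 (229.8 and 296.9). RAD54B, a motor of strand exchange, read 635.0 and 860.0. The median signal of the list was 226. For end joining, LIG4 (370.5 and 319.6) and XRCC6 (222.4 and 341.4) were bright and XRCC4 (77.7 and 79.2) was intermediate. Of the translesion polymerases, POLH (265.5 and 376.8) and REV1 (236.1 and 276.4) were bright, while REV3L (21.7 and 34.6) and POLQ (12.6 and 25.5) were dim. Over all genes, 6 counted as bright through a probe set that is not their brightest by mean.

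**Figure D3:**
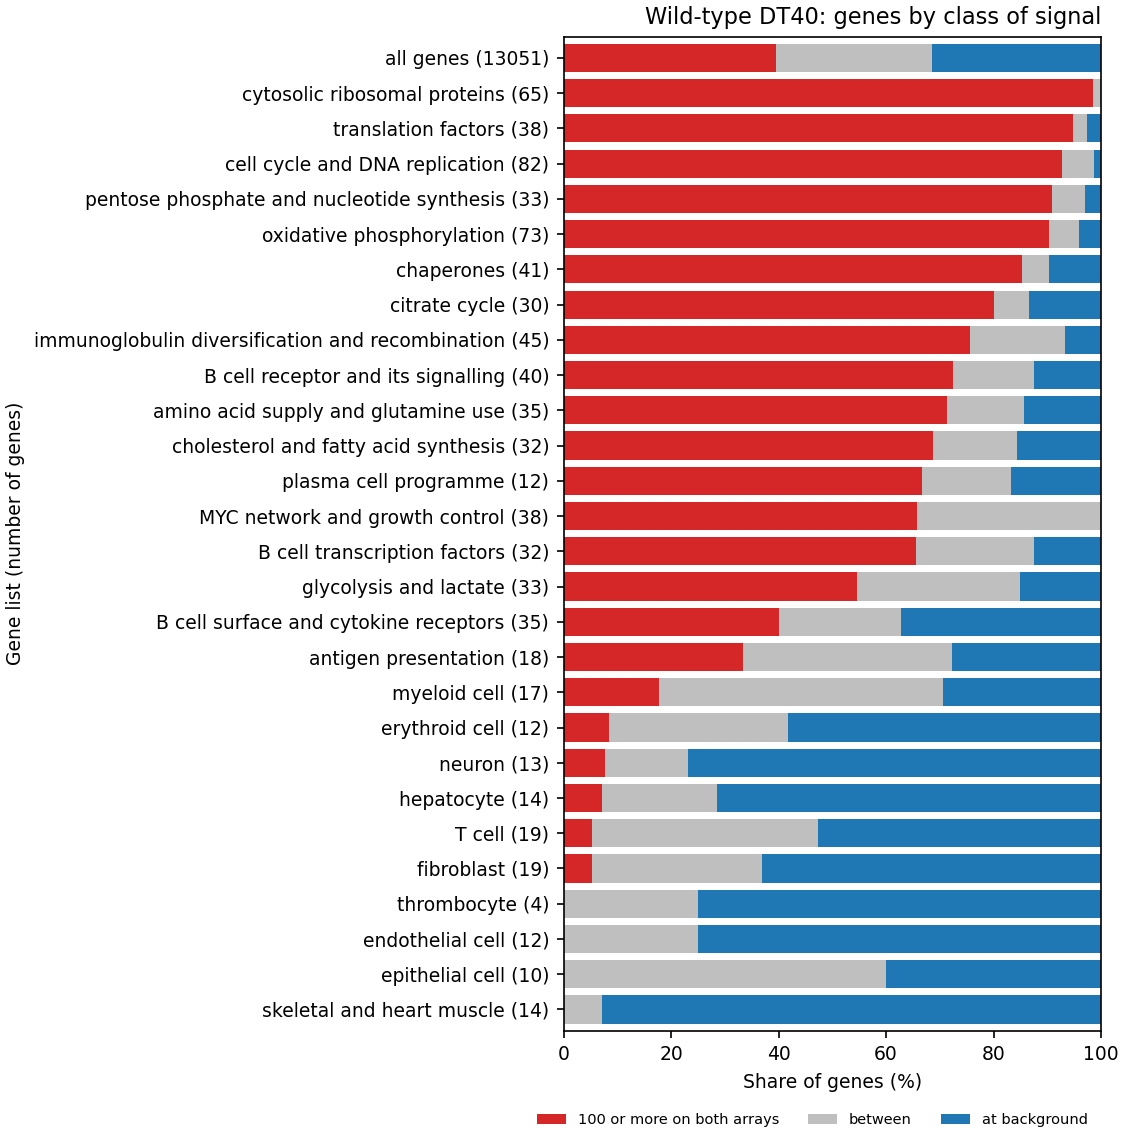
Share of genes (%) that were bright (100 or more on both arrays), intermediate (between) or at background in wild-type DT40, for all 13051 genes, for 17 lists of B cell, growth and metabolic genes and for 10 lists of other cell types, with the number of genes in brackets. Bright shares run from 98.5% of ribosomal protein genes to 33.3% of antigen presentation genes in the former, and do not exceed 17.6% in the latter.

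Cell division genes were bright almost without exception. Of 82 genes, 76 were bright (92.7%, against 39.5% of all genes) and 1 was at background, with a median signal of 1174.9. PCNA, the sliding clamp of replication, led at 8103.7 and 7934.8, and CDK1, the kinase of mitotic entry, read 4521.9 and 5913.8. MKI67, the proliferation antigen Ki-67, read 4096.7 and 5452.7. Among the G1 cyclins, CCND2 (952.9 and 1147.1), CCND1 (826.0 and 1179.1) and CCND3 (525.9 and 1136.9) were all bright. CCNE2 (1510.8 and 1617.1) stood above CCNE1 (126.3 and 123.3), though probes differ between them. Of the inhibitors of cyclin-dependent kinases, CDKN1A (p21) read 35.5 and 1.7, and CDKN2B (p15), the single gene at background, read 21.2 and 14.6. CDKN1B (p27) was bright at 242.9 and 187.1. The pocket proteins RB1 (191.2 and 250.5) and RBL1 (1474.8 and 1339.6), which restrain E2F factors, were bright.

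MYC read 7684.8 and 8785.0 from its 1 probe set, at rank 80 of 13051, and its relative MYCN read 6.7 and 25.7. Of the 38 genes of the MYC network and growth control, 25 were bright (65.8%, against 39.5% of all genes). Another 13 were intermediate and none was at background on both arrays. By replicate 1 alone 5 were, against 5327 of all 13051 genes. Nucleolar proteins differed widely. NPM1, the nucleolar chaperone, read 7189.7 and 10424.9 and NCL (nucleolin) read 5754.6 and 8152.2. Of genes of RNA polymerase I, the factor UBTF (26.0 and 25.1) and the subunit POLR1B were intermediate. The subunits POLR1C (1230.5 and 1700.9) and POLR1A (592.0 and 1039.9) and the factor RRN3 (630.0 and 748.1) were bright. Ornithine decarboxylase, listed as ODC and a classical MYC target, read 1992.3 and 2965.8. Of the repressors that oppose MYC, MXI1 (464.3 and 388.5), MXD4 (248.8 and 163.5) and MGA (141.2 and 217.0) were bright, whereas MXD3 (80.7 and 159.2), MXD1 (73.5 and 116.9) and MNT (54.7 and 72.2) were intermediate. The kinase MTOR read 92.1 and 119.6, and its partner RPTOR read 118.5 and 209.5.

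Ribosomal protein genes were the brightest list on the arrays. Of 65, 64 were bright (98.5%, against 39.5% of all genes) and none was at background. Ribosomal protein genes made up 27 of the 30 brightest genes with a settled symbol. They took 44 of the first 50 ranks and 58 of the first 100. RPS2, a small subunit protein, led all genes at 15615.8 and 14677.0, followed by RPS25 at 15190.5 and 15089.1. Together the 65 genes held 12.3% of the summed signal on replicate 1 and 10.7% on replicate 2. The bright ones read alike on both arrays, with a median log2 ratio of 0.01. The odd members were RPL22L1, a paralogue of RPL22, at 620.5 and 4259.7 in 1 of 3 probe sets (the log2 ratios of the others lay between -0.71 and 0.11), and RPS13, which was intermediate at 41.4 and 52.7 in the brightest of 5 probe sets. RPL22 itself read 8941.9 and 8556.0. Several members carry the name of a close paralogue (RPL26L1, RPS4Y1, RPL39L), and which of the near-identical genes their probes read is uncertain.

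Translation factors were next, with 36 of 38 bright (94.7%, against 39.5% of all genes) and a median signal of 3870.7. The helicase EIF4A2 (11356.9 and 12097.3) and the elongation factor EEF1A1 (10974.5 and 10832.3) led them. EEF1A2, the isoform of muscle and neurons in mammals, was at background at 1.4 and 15.7. Chaperones were bright in 35 of 41 cases (85.4%). HSPA8, the constitutive HSP70, read 8596.8 and 11072.3, and HSP90AA1 read 8378.2 and 10328.2. The subunits of the TRiC chaperonin were bright, from TCP1 (6820.0 and 8675.0) down to CCT3 (252.8 and 810.4). SERPINH1, the collagen chaperone, was at background at 6.8 and 2.2, with BAG3, HSPB2 and HSPB8. HSPB1, a small heat shock protein, was intermediate at 21.3 and 31.0.

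Glycolysis was bright from glucose entry to lactate, by 1 isoform at most steps. Of 33 genes, 18 were bright (54.5%, against 39.5% of all genes) and 10 were intermediate. At background were 5 (15.2%, against 31.5%), or 8 by replicate 1 alone, against 5327 of all 13051 genes by that array. Of the glucose transporters, SLC2A1 (GLUT1) read 223.0 and 182.4, and SLC2A8 read 226.7 and 200.9. At the hexokinase step, HK1 was bright at 249.8 and 622.8, HK2 was intermediate at 38.1 and 74.4, and HKDC1 was at background in 3 of 3 probe sets. At the phosphofructokinase step, PFKP stood at 2683.7 and 3844.1, above PFKL (69.4 and 148.2) and PFKM (13.7 and 27.4). At both steps 1 isoform passed the limit on both arrays and the other isoforms listed did not.

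Later in the pathway, ENO1 (enolase) read 11488.6 and 9798.9 at rank 46, and GAPDH read 10054.6 and 10063.9. ALDOC, the aldolase on the list with a bright signal, read 1950.4 and 3983.3. The genes named PGK2 and PKLR, for which RefSeq gives PGK1 and PKM as synonyms, read 4688.8 and 6578.9, and 5200.8 and 5840.9. Both lactate dehydrogenase chains were bright, LDHB at 7786.1 and 8700.0 and LDHA at 2965.7 and 4199.4. Lactate transport had SLC16A1 (MCT1) at 722.6 and 1320.9 and SLC16A7 at background. The enzymes that run the pathway backward were dim: PCK1 (1.4 and 15.1) and FBP2 (5.5 and 3.4) were at background, and FBP1 (4.3 and 23.6) and G6PC (39.7 and 28.4) were intermediate.

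Nucleotide synthesis and the pentose phosphate pathway were bright in 30 of 33 cases (90.9%, against 39.5% of all genes). PAICS and PPAT, enzymes of purine synthesis, read 3795.6 and 5773.1, and 4001.2 and 4359.8. IMPDH2, which commits purines to guanine nucleotides, read 4618.2 and 4615.6. TYMS, which makes thymidylate, read 4186.0 and 5724.0. PGD and TALDO1 of the pentose phosphate pathway were at 2513.9 and 2120.2, and at 2838.5 and 3354.8. H6PD, the enzyme of the endoplasmic reticulum, was at background in 4 of 4 probe sets.

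In mitochondria, 24 of 30 citrate cycle genes (80.0%) and 66 of 73 oxidative phosphorylation genes (90.4%) were bright, against 39.5% of all genes. SDHA, a succinate dehydrogenase subunit of both lists, read 4828.3 and 5061.6, and the malate dehydrogenases MDH1 and MDH2 read 4791.3 and 4655.3, and 3662.0 and 4027.1. The nucleotide carrier SLC25A6 led the respiratory list at 7486.7 and 8839.3. Those at background in the citrate list were side enzymes: pyruvate carboxylase PC (1.4 and 4.1), the malic enzymes ME1 and ME3, and the pyruvate dehydrogenase kinase PDK4 (11.5 and 6.2). PDK1, another kinase of that family, was bright at 1624.7 and 1602.9. In the respiratory list VDAC1, a channel of the outer membrane, read 8.1 and 1.2, while VDAC2 (5231.7 and 5424.5) and VDAC3 (3113.7 and 2976.7) were bright. COX7B (1.5 and 10.4) and the gene listed as ATP5G2 (13.7 and 19.8) were also at background, each with 1 probe set.

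Amino acid supply was uneven. Of 35 genes, 25 were bright (71.4%, against 39.5% of all genes), 5 were intermediate and 5 were at background (14.3%, against 31.5%). ASNS, which makes asparagine, read 1682.1 and 1881.2, and ATF4, the factor that raises such enzymes under amino acid stress, read 3296.5 and 2199.6. Along serine synthesis, PSPH (1823.9 and 669.8) and PSAT1 (374.3 and 207.0) were bright and PHGDH, the first enzyme, was at background at 1.5 and 5.7 from 1 probe set. The pair that makes arginine from citrulline, ASS1 (4.9 and 7.1) and ASL (2.8 and 11.1), was at background, as was glutamine synthetase GLUL (19.6 and 14.6) in 2 of 2 probe sets. The glutamine carriers SLC38A1 (904.3 and 1270.3) and SLC38A2 (717.6 and 639.2) were bright. TXN (thioredoxin) was the brightest of the list at 9667.4 and 9934.5, while its reductase TXNRD1 was at background in 3 of 3 probe sets.

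Cholesterol and fatty acid synthesis held 22 bright genes of 32 (68.8%, against 39.5% of all genes) and 5 at background (15.6%, against 31.5%). The sterol enzymes MSMO1 (7062.1 and 5390.6) and SQLE (5530.7 and 5131.5) led, with INSIG1, the sterol sensor's retention factor, at 4215.7 and 2757.2. FASN (fatty acid synthase) read 1034.3 and 1240.4. Of the regulators, SREBF2, which drives sterol genes, was bright at 451.2 and 646.4, and SREBF1, which drives fatty acid genes, was at background in 3 of 3 probe sets, the brightest at 25.5 and 6.4. CYP51A1, a step of the same sterol pathway, was at background at 28.1 and 20.5 from 1 probe set. The desaturases SCD (61.3 and 54.7), FADS1 (29.1 and 21.6) and FADS2 (7.3 and 3.8) were below the limit.

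**Figure D4:**
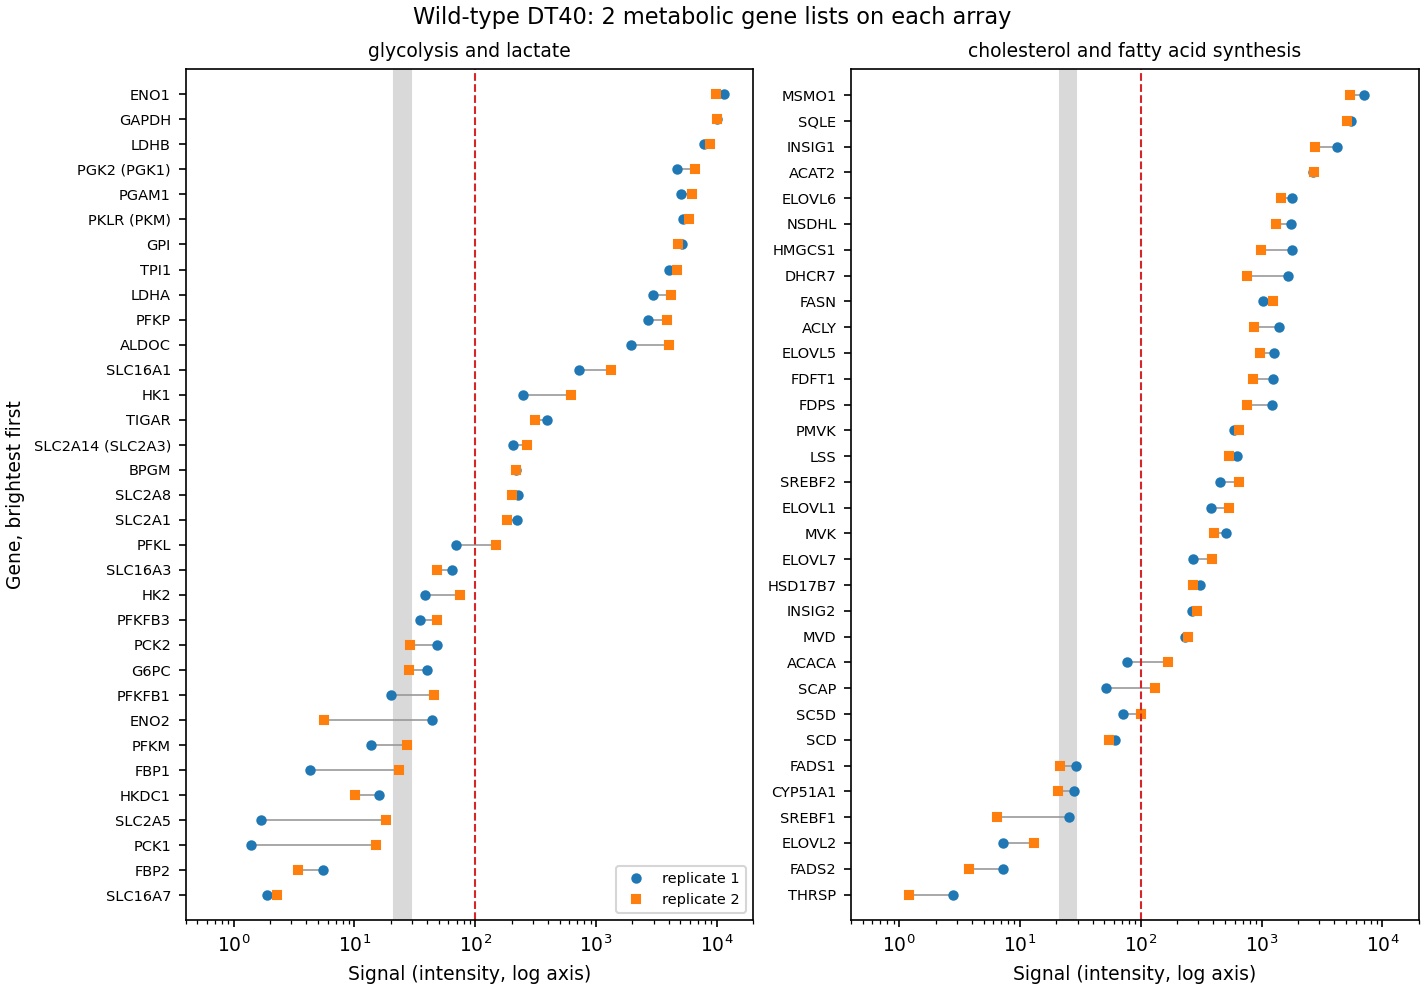
Signal (intensity, log axis) of each gene of glycolysis and lactate (left) and of cholesterol and fatty acid synthesis (right) on replicate 1 (circles) and replicate 2 (squares) of wild-type DT40, brightest first, with the limit of 100 (dashed) and the range of the background limits, 21.4 to 29.2 (grey). A name in brackets is the listed one where the file's differs. Among the sterol genes from MSMO1 to FDPS most squares lie left of the circles.

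The lists differed in how their bright members compared between the arrays. Of all bright genes, 76.0% read higher on replicate 2, or 47.4% after quantile normalization. Their median log2 ratio of replicate 2 over replicate 1, on signal + 6, was 0.26, and after quantile normalization it was -0.02. Cholesterol and fatty acid genes stood below it at -0.27, with 8 of 22 higher on replicate 2, and at -0.55 after quantile normalization, with 3 of 22 higher. HMGCS1 (1781.9 and 992.0) and DHCR7 (1668.8 and 757.8) lay farthest apart among the sterol enzymes in favour of replicate 1. B cell transcription factors stood above the median of all bright genes at 0.61, or 0.32 after quantile normalization. Of the 21, 16 were higher on replicate 2 (76.2%), near the 76.0% of all bright genes. After quantile normalization 13 were (61.9%, against 47.4%). The 10 bright B cell markers had a median of 0.76, or 0.49 after quantile normalization, with 10 and 9 of 10 higher on replicate 2. They are also members of the B cell and antigen presentation lists, so they are not a separate group of genes. The 6 bright antigen presentation genes had 0.59, or 0.31. The 24 bright citrate cycle genes had 0.01, or -0.26 after quantile normalization, with 12 higher on replicate 2, or 6. Chaperones had 34 of 35 higher on replicate 2 and 24 of 35 after quantile normalization. With 1 array for each date code, whatever the code stands for and the array cannot be told apart.

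**Figure D5:**
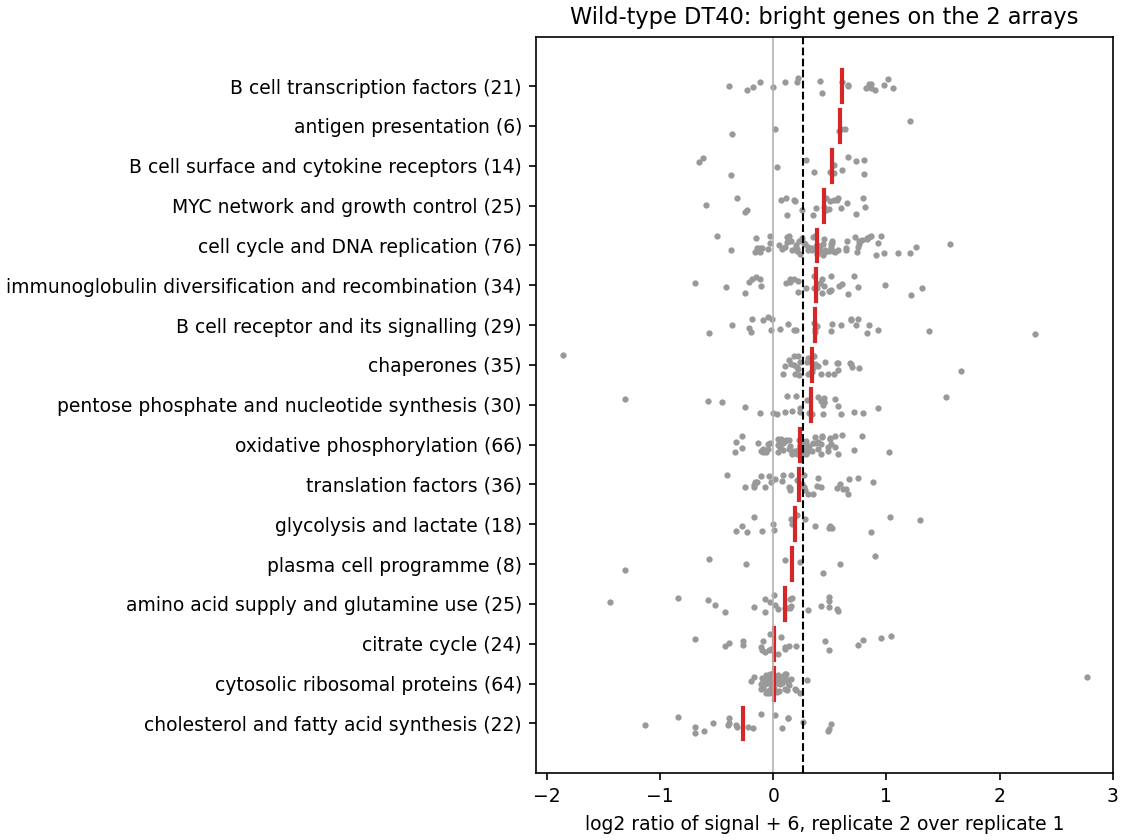
log2 ratio of signal + 6, replicate 2 over replicate 1 of wild-type DT40, for the bright genes of 17 lists (1 point per gene, jittered vertically, number of bright genes in brackets), with each list's median (red) and the median of all bright genes, 0.26 (dashed). The values are as deposited, without further scaling. The cholesterol and fatty acid list is the one whose median, -0.27, lies below 0, and ribosomal protein genes crowd at 0 apart from RPL22L1.

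Single genes differed more. Among probe sets at 100 or more on at least 1 array, CD3E (4.3 and 118.7), NALCN, a sodium leak channel (58.4 and 606.3), and PRRC2C (12.9 and 155.0) had the largest ratios toward replicate 2. For NALCN and PRRC2C the other probe sets ranged from negative to positive log2 ratios. LCP1, an actin-bundling protein of leukocytes, read 16.4 and 180.9, and its other probe set moved the same way with a log2 ratio of 2.11. DOK3, an adaptor that restrains B cell receptor signalling, read 122.2 and 752.3. Toward replicate 1 the largest were TMEM74 (335.6 and 44.8), DBI, an acyl-CoA binding protein (338.9 and 59.2), and BACH1, a repressor of haem-responsive genes (412.6 and 80.9). The other probe sets of BACH1 had log2 ratios from -2.26 to 0.29. GLIPR2 (604.3 and 122.9) and MGST1, a microsomal glutathione transferase (198.4 and 56.4), were lower on replicate 2 in all their probe sets.

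Markers of other cell types were rare among the bright genes. No member was bright in the lists of thrombocytes (4 genes), endothelial cells (12), epithelial cells (10) and skeletal and heart muscle (14). At background were 3, 9, 4 and 13 of them, against 31.5% of all genes. The 4 epithelial genes made up 40.0% of their list, near that share, and the other 6 were intermediate. The 13 muscle genes made up 92.9% of theirs. Of 19 fibroblast genes, 12 were at background (63.2%, against 31.5%) and VIM (vimentin), which lymphocytes also make, was bright at 1276.9 and 1739.0. Of 12 erythroid genes, 7 were at background (58.3%, against 31.5%) and HBA1 read 20.4 and 32.7. The transferrin receptor TFRC, common to dividing cells, was bright at 1456.9 and 1708.8. Summed signals of the whole lists were 1589.7 and 2063.7 for fibroblasts, most of it from VIM, and 129 and 137 for muscle.

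Of 17 myeloid genes 3 were bright, namely SPI1, NCF1C, for which RefSeq gives NCF1 as a synonym (403.8 and 657.9), and CTSB (111.4 and 195.3). Another 9 were intermediate and 5 were at background (29.4%, against 31.5% of all genes). The growth factor receptors that define myeloid cells were dim, with CSF1R at 32.0 and 26.8 and CSF3R at 1.6 and 3.2. CYBB, an oxidase subunit of phagocytes and B cells, read 46.3 and 248.2. In the T cell list CD3D was bright at 2428.1 and 4040.7, rank 404, from 1 probe set. Of the 19 genes, 10 were at background (52.6%, against 31.5% of all genes), among them LCK (1.3 and 7.9), CD2 (11.7 and 13.3), CD28 (19.1 and 3.1) and CD4 (3.1 and 2.9). CD247, the zeta chain (53.1 and 124.3), and CD3E, another CD3 chain (4.3 and 118.7), were at 100 or more on replicate 2, where 3 genes of the list thus were, and below it on replicate 1.

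Bright members also appeared in the lists of hepatocytes and neurons. TF (transferrin), an iron carrier, read 2425.4 and 3249.2 in 1 of 4 probe sets. ALB (29.4 and 29.9) was near the background limits and APOB was at background in 7 of 7 probe sets. STMN2, a microtubule regulator of neurons, read 1775.2 and 3579.8 with 2 of 2 probe sets bright, while SNAP25 was at background in 7 of 7 and DCX in 5 of 5. Of the 13 neuron genes 10 were at background (76.9%), and of the 14 hepatocyte genes 10 were (71.4%), against 31.5% of all genes.

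Single chromosomes with over 200 genes ranged from 30.8% bright (chromosome 26, 227 genes) to 48.0% (chromosome 19, 281 genes), but pooled groups were close. Of genes on chromosomes 1 to 5, 39.7% were bright, and of genes on chromosome 11 and above, the small chromosomes of birds, 40.4%, with 34.0% and 27.2% at background. On the Z chromosome 35.3% of 606 genes were bright, and on the W chromosome 7 of 17 were. HINTW, a gene of the female-specific W chromosome, read 7290.4 and 7572.7 at rank 96. Gene length set the classes further apart. Of 1247 genes over 100 kb, 20.9% were bright and 46.4% at background, against 46.3% and 27.7% of 2606 genes between 10 and 20 kb. The drop for long genes appeared within chromosomes 1 to 5 (22.2% of 753), within the small chromosomes (20.6% of 175) and within Z (17.7% of 96).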

How the data were processed

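Total RNA of wild-type DT40 was measured on 2 Affymetrix arrays, grouped by sample title. The authors deposited 1 signal intensity per probe set, unlogged, and GCOS is the tool named, per the submitters' processing notes. Its version, scaling target and detection calls are not given in the sources used here, so the scale between the arrays is unknown; values were used as deposited. Ratios of 3' to 5' control probe sets were 2.81 and 2.02 for actin and 0.998 and 1.02 for GAPDH. The number of arrays limits the precision.

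Probe sets were named from the platform's probe table, and 26853 of 27168 were matched by gene number to RefSeq (assembly GRCg7b) for current symbol, synonyms, chromosome and gene length. The table had 177 probe sets with several symbols and 11094 with none, which were not ranked. Of the 13051 genes, 453 have a provisional symbol and 84 share a symbol with another gene number; 22 listed genes were found by a RefSeq synonym.

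The genes, lists and limits were chosen with earlier results of these data known. The genes named are members of the lists, the 30 brightest, the 20 brightest in no list, the 10 largest ratios between the arrays each way, the 3 genes on each side of the limit, genes whose probe sets disagree, and the brightest of the W and Z chromosomes; LOC396098 (Bu-1) is a list member. No test was made, since the description has no contrast. Alternatives were limits of 50 and 200, the mean of both arrays, the mean of a gene's probe sets, 2 scalings, each array alone, 2 other background limits and leaving out probe sets ending in _s_at or _x_at. Promoter and protein features, which had been planned, were not analysed here; gene length was described in their place. Python 3.11.15, pandas 2.3.3, NumPy 2.4.6 and SciPy 1.17.1 were used.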

Additional observations from a re-analysis of the deposited data

How the results depend on the processing

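The number of bright genes, 5154, ranged from 3926 at a limit of 200 to 6319 at a limit of 50, and from 5261 to 5573 with 1 array alone. The number at background, 4109, was 3534 with the limit at the median of all probe sets, ranged from 4304 to 5327 with 1 array alone, and was 481 with the limit at the median of the controls. That last limit left 0 members at background in the lists of T cells, myeloid cells, erythroid cells, thrombocytes, endothelial cells, epithelial cells, hepatocytes and neurons, 2 in fibroblasts and 3 in muscle, because it is lower by construction. With 1 array alone, members at background ranged from 10 to 16 for T cells, 7 to 9 for myeloid cells and 7 to 11 for erythroid cells, and also 0 to 5 for the MYC network, 5 to 10 for antigen presentation and 4 to 6 for immunoglobulin diversification. Probe sets ending in _s_at or _x_at can read more than 1 transcript. Without them, an alternative chosen after seeing the data, 3958 of the 11820 genes left were bright (33.5%), with 49 of the 63 cell cycle genes left, 18 of 26 in nucleotide synthesis and the pentose phosphate pathway and 15 of 25 in the citrate cycle. Fewer genes had a probe set there. All other counts of bright members in the 17 lists stayed within 1.5 times under these alternatives. Promoter and protein features were not run, for lack of sequence tables. No paired analysis was possible because no result comes from a test. Signal over background limits all statements on dim genes: under a mean of 25, 79.9% of probe sets lay within 2-fold between the arrays on signal + 6. The added 6 shrinks the ratios of such low signals.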

Other observations

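The brightest genes outside the lists had varied roles. SEC61B, a subunit of the channel into the endoplasmic reticulum, read 11386.1 and 12426.8 at rank 22, with 2 of its 6 probe sets at background. ANP32B, a histone chaperone, read 9671.6 and 10379.7. OAZ1, the inhibitor of ornithine decarboxylase, read 10254.6 and 8857.4. PRDX1, a peroxiredoxin, read 9591.6 and 8639.0, and TMSB4X and DSTN, which bind actin, read 8949.1 and 7459.1, and 9237.4 and 9294.6. The histone variant genes listed as H3F3B (7782.9 and 8017.1) and H2AFZ (6993.2 and 8783.8) were in the first 100 ranks. PTMA (prothymosin alpha) read 5836.3 and 9062.0 and was bright in 4 of 4 probe sets. In all, 308 of the 500 brightest genes were in no list, a smaller share than the 12247 of all 13051 genes.

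Probe sets of 1 gene often disagreed. Of 3330 bright genes with several probe sets, 1267 had at least 1 at background, and of all 7336 genes with several probe sets 849 were bright in every one. RPS21 had 1 probe set at 13350.1 and 13359.8 and another at background. Probe sets without a gene symbol were dimmer than those with 1: 1118 of 11094 (10.1%) gave 100 or more on both arrays against 7436 of 27168 (27.4%), and 62.8% against 43.5% were at background. Of 57 reporter probe sets on the array, 50 were at background and none was bright.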
